A study of Homo sapiens with 6 samples.

Results

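Peaks on the mitochondrial genome were examined in 6 lines of leukaemia cells kept in culture, all from acute lymphoblastic leukaemia of the T lineage (T-ALL), which arises from immature T cells. They were taken from the authors' ATAC-seq peak lists as every entry whose sequence name is neither a chromosome from 1 to 22 nor X or Y. The rule found 182 of 139886 entries, and all 182 carried the name MT, the mitochondrial genome. It found 0 entries on unplaced or alternate contigs in each of the lines TALL-1, KOPT-K1, CCRF-CEM, MOLT-4, HBP-ALL and DND-41, so no contig carried a peak in several lines. Whether reads were aligned to such contigs is not given in the sources used here.

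Each human line was grown in RPMI-1640 medium with serum and antibiotics, and the labels name no treatment, control or genetic change. Each was represented by 1 library, read as paired ends of 150 bp. In ATAC-seq the transposase Tn5 inserts adapters into DNA that proteins leave bare, so that stacks of tags mark accessible DNA. With 1 library per line no replicate error exists for any value below, no test between lines was possible, and a difference between lines cannot be told apart from a difference between preparations.

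The mitochondrial genome is a small circle of DNA, present in many copies per cell, that codes for subunits of the respiratory chain and for the RNAs of its own translation. The RefSeq gene table, which is of another build (GRCh38.p14), lists 37 genes on it, of which 13 code for proteins, 22 for transfer RNAs and 2 for ribosomal RNAs. In that table's order the genes start with TRNF, a transfer RNA, and RNR1 and RNR2, the ribosomal RNAs, and end with CYTB, a subunit of respiratory complex III, and the transfer RNAs TRNT and TRNP. Mitochondrial DNA is packed by the protein TFAM and not into nucleosomes. Tn5 that reaches the organelle cuts it readily, and mitochondrial reads are a common part of ATAC-seq libraries. Positions below are 1-based on the sequence the lists call MT, in build hg19 per the submitters' processing notes. They were not placed in genes, because the gene table is of another build, and which mitochondrial reference stands behind the name is not given in the sources used here.

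Mitochondrial entries were a small share of each list. CCRF-CEM had 31 of 24808 entries (0.125%, exact Clopper-Pearson 95% interval 0.0849% to 0.177%). DND-41 had 31 of 21980 (0.141%, 0.0958% to 0.200%), HBP-ALL 34 of 27696 (0.123%, 0.0850% to 0.172%) and KOPT-K1 30 of 21513 (0.139%, 0.0941% to 0.199%). MOLT-4 had 28 of 23421 (0.120%, 0.0795% to 0.173%) and TALL-1 28 of 20468 (0.137%, 0.0909% to 0.198%). The 6 confidence intervals overlap. They cover counting error only, as if entries were independent, though many mitochondrial entries belong to the same peak. Their overlap is no comparison of the lines.

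An entry of a list is a summit, the highest point of a stack of tags, and several summits can share 1 interval. The mitochondrial summits were held by 5 intervals in CCRF-CEM and TALL-1 and by 6 in the other 4 lines. These intervals covered between 12590 bp in TALL-1 and 13094 bp in KOPT-K1. Within the stretch from the first interval's start to the last interval's end, that was 80.0% in KOPT-K1, 78.7% in HBP-ALL, 78.4% in CCRF-CEM, 78.1% in DND-41, 78.0% in MOLT-4 and 76.8% in TALL-1. Most of the mitochondrial sequence was thus called as peak in every line.

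The intervals had nearly the same borders in all lines. Joined across lines where they overlapped by at least 1 bp, they formed 6 regions, and 5 of these held an interval of every line. Over all sequences 22.5% of joined regions held all 6 lines, and 6 mitochondrial regions are too few to set against that share. The first region ran from 78 to 4095, with starts that differed by at most 18 bp between lines and ends that differed by at most 67 bp. The second, from 4832 to 5087, was short: its starts differed by at most 5 bp and its ends by at most 15 bp. The third ran from 6179 to 6948, and here the ends split. CCRF-CEM and KOPT-K1 ended at 6943 and 6948, and the other 4 lines between 6722 and 6731. The fourth ran from 7776 to 8686. The last and widest ran from 9501 to 16474, with starts within 17 bp and ends within 13 bp of each other.

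The fifth region, from 9053 to 9278, was the one that not every line had. DND-41, HBP-ALL, KOPT-K1 and MOLT-4 each had 1 summit there, between 9110 and 9124, and CCRF-CEM and TALL-1 had none. It was the weakest mitochondrial call in each of the 4 lists. The authors' fold enrichment, the ratio of the summit to the local background, was 1.04 in MOLT-4 and 1.03 in each of the other 3. The authors' −log10 p there was 7.78 in MOLT-4, 5.83 in DND-41, 5.77 in HBP-ALL and 5.44 in KOPT-K1, close to 5, just above which the lowest values of all lists lay.

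Between these regions, 5 stretches held no interval in any line. They ran from 4096 to 4831 (736 bp), 5088 to 6178 (1091 bp), 6949 to 7775 (827 bp), 8687 to 9052 (366 bp) and 9279 to 9500 (222 bp). A stretch without a call is one where the tags did not rise far enough over the local background. It does not show that tags were few there, and the lists give no tag number for it.

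**Figure D1:**
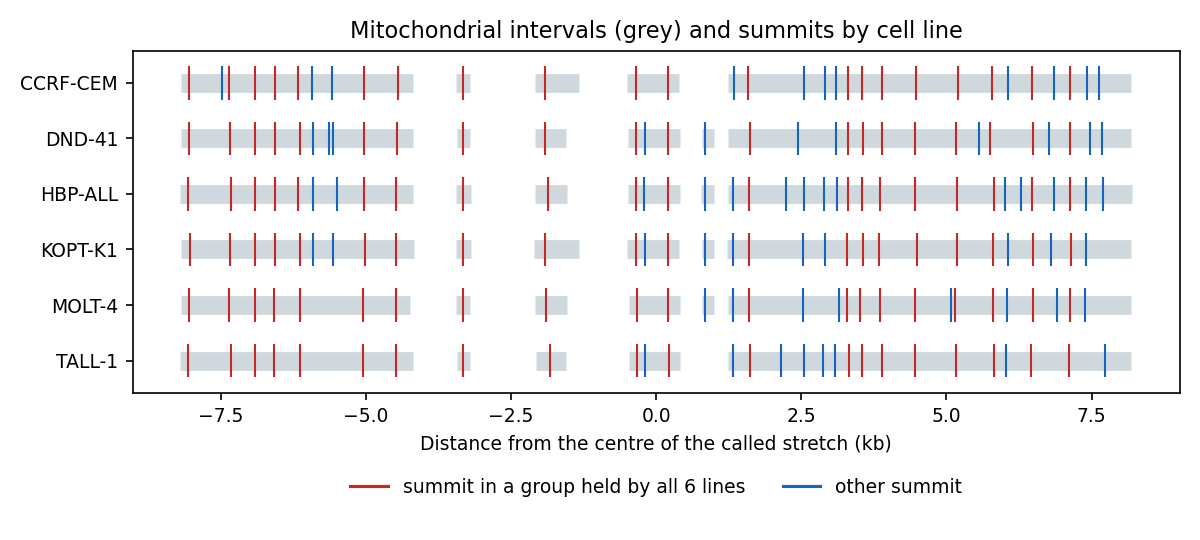
Intervals (grey bars) and summits (vertical ticks) on the mitochondrial genome in the 6 lines, by distance in kb from the centre of the called stretch. Red ticks belong to the 20 summit groups held by all 6 lines and blue ticks to other summits; the bars have similar borders in all lines, except that the third bar from the left ends later in CCRF-CEM and KOPT-K1, and 1 short interval right of the centre is missing in CCRF-CEM and TALL-1.

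Summits of the 6 lists were joined into groups along the sequence wherever the next summit lay within 50 bp. The 182 summits formed 43 groups, of which 20 held a summit of every line. Another 5 groups held 5 lines, 5 groups held 4, 2 groups held 3 and 11 groups held 1 line. Over all sequences 7.11% of summit groups held all 6 lines. Mitochondrial summits lie densely, with a median distance of 366 bp in HBP-ALL to 495 bp in MOLT-4 to the next summit of the same line, so the mitochondrial count was not read as an excess over that share.

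In the first region 7 summit groups recurred in all lines. They lay at 218 to 238, 920 to 946, 1357 to 1369, 1689 to 1713, 2104 to 2135, 3219 to 3258 and 3785 to 3821. The second region and the one after it held 1 each, at 4950 to 4953 and 6363 to 6439. The fourth region held 2, at 7919 to 7943 and 8484 to 8490. The last region held 9, at 9861 to 9895, 11556 to 11595, 11780 to 11835, 12112 to 12168, 12736 to 12761, 13427 to 13466, 14023 to 14098, 14740 to 14761 and 15381 to 15416. Each of the 20 groups held exactly 1 summit per line.

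The summit of the short second region was placed most tightly. It lay at 4950 in CCRF-CEM and MOLT-4, 4951 in HBP-ALL and TALL-1, 4952 in DND-41 and 4953 in KOPT-K1, a span of 3 bp. The group at 8484 to 8490 came next: its summit was at 8486 in CCRF-CEM, DND-41 and MOLT-4, 8487 in HBP-ALL, 8484 in KOPT-K1 and 8490 in TALL-1. The widest groups were those at 6363 to 6439, where the TALL-1 summit at 6439 lay apart from 6363 to 6408 in the other lines, and at 14023 to 14098, where that of DND-41 at 14023 lay below 14067 to 14098 elsewhere. The median span over the 20 groups was 32.5 bp. On chromosomes 1 to 22, X and Y, 4826 groups also had exactly 1 summit per line, and their median span was 66 bp, with a middle 50% from 46 to 88 bp against 23.2 to 39 bp on the mitochondrial genome. The tags behind the summits moved with this difference: the highest pileup on those chromosomes was 3813 tags in HBP-ALL, 3432 in TALL-1, 2800 in DND-41, 2051 in MOLT-4, 2027 in KOPT-K1 and 1293 in CCRF-CEM, and the lowest mitochondrial one was 18461. Its part in the tighter placement was not tested.

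The pileup is the number of tags stacked at a summit. It and the local background, the number of tags the peak caller set as chance level there, were worked out from the fold and −log10 p of the deposited lists. The lowest mitochondrial pileup in each line was 23898 tags in KOPT-K1, 22336 in CCRF-CEM, 21181 in DND-41, 19921 in TALL-1, 19775 in MOLT-4 and 18461 in HBP-ALL. The highest was 38929 in KOPT-K1, 36448 in CCRF-CEM, 32596 in DND-41, 32038 in MOLT-4, 28865 in TALL-1 and 28838 in HBP-ALL. Mitochondrial pileups at called summits therefore varied within a line by no more than 1.63-fold, in CCRF-CEM and KOPT-K1, and by as little as 1.45-fold in TALL-1. Positions between summits have no value, so the variation along the whole sequence is not known.

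By the authors' −log10 p, mitochondrial summits led every list. The strongest lay at 937 in KOPT-K1 (−log10 p 4472), 794 in CCRF-CEM (4242), 941 in DND-41 (3716), 1368 in MOLT-4 (3560), 946 in HBP-ALL (3556) and 945 in TALL-1 (3108). The highest value on chromosomes 1 to 22, X and Y was lower in each list, from 940.6 in CCRF-CEM to 3209 in HBP-ALL. Of the mitochondrial summits, 19 in CCRF-CEM, 13 in KOPT-K1, 9 in MOLT-4, 6 in DND-41, 3 in TALL-1 and 2 in HBP-ALL exceeded it.

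By fold enrichment the order within each list turned over. The highest mitochondrial fold was 2.50 in HBP-ALL, 2.46 in CCRF-CEM, 2.44 in KOPT-K1, 2.42 in DND-41, 2.38 in MOLT-4 and 2.38 in TALL-1. The median fold of entries on chromosomes 1 to 22, X and Y was 7.62 in CCRF-CEM and 6.35 to 6.63 in the other 5 lines. Few entries there were as low as the highest mitochondrial one: 21 of 20440 in TALL-1, 19 of 27662 in HBP-ALL, 18 of 21949 in DND-41, 12 of 23393 in MOLT-4, 12 of 21483 in KOPT-K1 and 3 of 24777 in CCRF-CEM. Mitochondrial summits thus combined the largest tag numbers of each list with its smallest folds, these few entries aside. In every list the lowest mitochondrial fold (1.03 to 1.08) was under the lowest on those chromosomes (1.51 to 2.21).

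The widths and the number of summits set them apart as well. The widest mitochondrial interval, the one that ends at 16461 to 16474, spanned 6969 bp with 19 summits in HBP-ALL, 6962 bp with 15 in KOPT-K1, 6957 bp with 16 in MOLT-4, 6952 bp with 17 in CCRF-CEM, 6949 bp with 16 in TALL-1 and 6944 bp with 15 in DND-41. The widest interval on the other chromosomes was 2860 to 2948 bp in the 6 lists, and no interval there held more than 9 summits. A mitochondrial interval of this width is a stretch above background and not a single site.

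The fold was highest near both ends of the sequence and lowest past its middle. In the group at 920 to 946 it was 2.50 in HBP-ALL, 2.44 in KOPT-K1, 2.42 in CCRF-CEM and DND-41 and 2.38 in MOLT-4 and TALL-1. In the group at 8484 to 8490 it had fallen to 1.17 in CCRF-CEM and TALL-1, 1.21 in DND-41 and MOLT-4, 1.25 in HBP-ALL and 1.23 in KOPT-K1. In the last shared group, at 15381 to 15416, it was again between 1.85 in TALL-1 and 1.98 in KOPT-K1.

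The pileup did not follow that course. At 920 to 946 it was 34071 tags in KOPT-K1, 31393 in CCRF-CEM, 28736 in DND-41, 27443 in MOLT-4, 25879 in HBP-ALL and 24866 in TALL-1. At 12736 to 12761, where the fold was only 1.45 to 1.51, it was 38152 in KOPT-K1, 36448 in CCRF-CEM, 32225 in DND-41, 32038 in MOLT-4, 28784 in HBP-ALL and 28097 in TALL-1. In each of the 6 lines the summit with the lower fold had the higher pileup.

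Along the sequence the local background tended to be high where the fold was low, though not at every step. In KOPT-K1 both rose from the summit at 9124 to that at 9881, the background from 24436 to 26115 tags and the fold from 1.03 to 1.39. At the first shared group, 218 to 238, the background was 12942 tags in KOPT-K1, 12050 in CCRF-CEM, 10986 in DND-41, 10680 in MOLT-4, 9660 in TALL-1 and 9599 in HBP-ALL. It rose inward and was highest at summits between 11183 and 11417, with 28343 in KOPT-K1, 26176 in CCRF-CEM, 23802 in DND-41, 22982 in MOLT-4, 20977 in TALL-1 and 20804 in HBP-ALL. At the last summit of each line it was down to 13279 in TALL-1 to 18826 in KOPT-K1. The highest background was 2.15 to 2.19 times the lowest in every line. The background thus fell toward both ends of the sequence as listed, where a window around a summit would run past the end of a circular genome written as a line. The window the peak caller used is not given in the sources used here. The part of the ends in the high folds and −log10 p values there, those of the strongest summits between 794 and 1368 included, was not tested. Across the summits of 1 line, Spearman's rho of fold with local background was −0.92 in DND-41 (31 summits) to −0.86 in MOLT-4 (28 summits), and that of fold with pileup −0.08 in CCRF-CEM (31 summits) to 0.13 in TALL-1 (28 summits). These are descriptions across summits of the same library, and the fold holds the background in its denominator by construction. A rank of mitochondrial summits by the authors' fold or −log10 p therefore differs from a rank by tags.

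**Figure D2:**
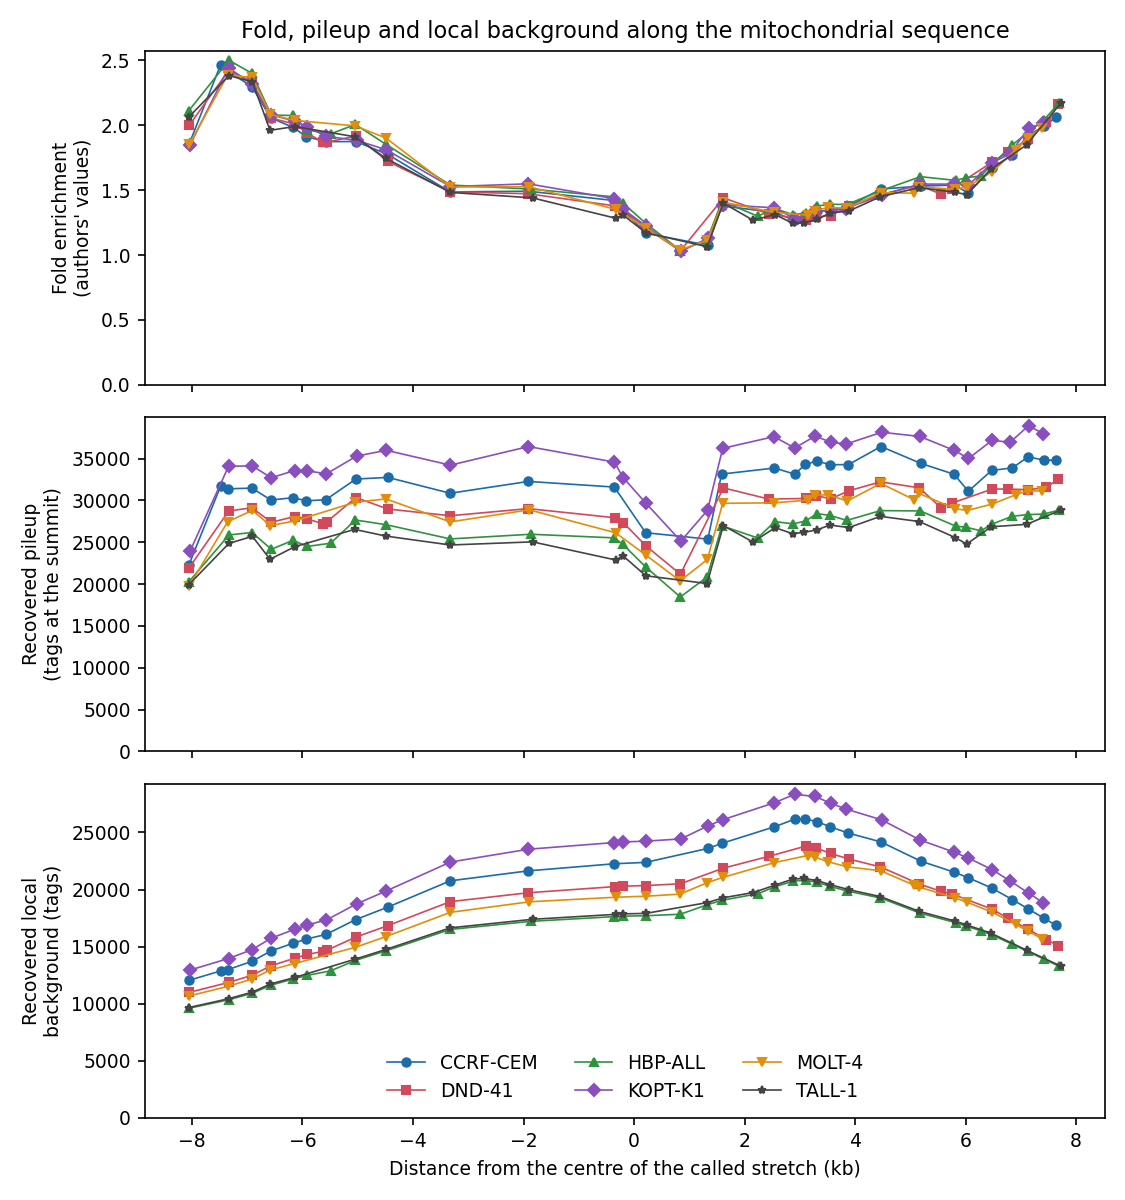
Authors' fold enrichment (top), recovered pileup in tags (middle) and recovered local background in tags (bottom) at every mitochondrial summit, by distance in kb from the centre of the called stretch; each symbol and colour is 1 line. Folds reach 2.38 to 2.50 near the left end and fall to near 1 right of the centre, while backgrounds rise from 9599 to 12942 at the left end to 20804 to 28343.

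The shape of the pileup along the sequence was shared by the lines. To compare it, each pileup was divided by the median of the line's 20 shared groups, which gives a relative pileup. This ranged from 0.66 to 1.12 over all groups and lines. In 17 of 20 groups the highest line exceeded the lowest by less than 6%. That bound is a chosen figure and not a measure of error, and a slightly lower one would give a smaller count. Spreads lay just under it, from 1.051-fold to 1.058-fold, at 1357 to 1369, 3219 to 3258, 6363 to 6439, 12736 to 12761 and 14740 to 14761. Over the 15 pairs of lines, Spearman's rho of pileups across the 20 groups was 0.87 to 0.97. These values describe shape; all groups of a line share its library, and all lines share the sequence and its base composition.

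A pair of groups was low in every line. The group at 8484 to 8490 had a relative pileup of 0.80 in CCRF-CEM and MOLT-4, 0.84 in DND-41, 0.82 in HBP-ALL and TALL-1 and 0.83 in KOPT-K1. The group at 218 to 238, nearest the start of the sequence, was at 0.77 in TALL-1, 0.75 in DND-41 and HBP-ALL, 0.68 in MOLT-4 and CCRF-CEM and 0.66 in KOPT-K1. Of the other 18 groups, the lowest value in any line was 0.89.

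The partial group before that at 8484 to 8490, at 8073 to 8082, stood higher than it in each line that held both. Pileups at 8073 to 8082 were 32736 tags in KOPT-K1, 27352 in DND-41, 24755 in HBP-ALL and 23371 in TALL-1. At 8484 to 8490 these lines had 29724, 24598, 22051 and 20994. The partial groups that follow it were low as well. At 9110 to 9124 the pileup was 25140 tags in KOPT-K1, 21181 in DND-41, 20379 in MOLT-4 and 18461 in HBP-ALL, and in DND-41 and HBP-ALL it was the lowest on the mitochondrial genome. At 9598 to 9612, held by every line but DND-41, it was 28823 in KOPT-K1, 25377 in CCRF-CEM, 22951 in MOLT-4, 20843 in HBP-ALL and 20065 in TALL-1. From there to the next shared group, at 9861 to 9895, pileups rose to 36230 in KOPT-K1, 33149 in CCRF-CEM, 29657 in MOLT-4, 26986 in TALL-1 and 26963 in HBP-ALL. Pileups were thus low at the summits measured between 8484 and 9612, and higher at 9861 to 9895. The parts of this stretch without an interval have no value.

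Groups beyond these summits stood higher. Groups from 9861 to 15416 had relative pileups of 0.99 to 1.12, and those from 920 to 7943 of 0.89 to 1.03. The group at 12736 to 12761 had the highest pileup of the shared groups in every line but KOPT-K1, where that at 15381 to 15416 was higher. Its relative pileup was 1.12 in CCRF-CEM, 1.10 in DND-41, 1.09 in MOLT-4 and TALL-1, 1.07 in HBP-ALL and 1.06 in KOPT-K1. HBP-ALL and KOPT-K1 had their summits with most tags elsewhere, at 15969 and 15416, as had DND-41 at 15958 and TALL-1 at 16006.

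**Figure D3:**
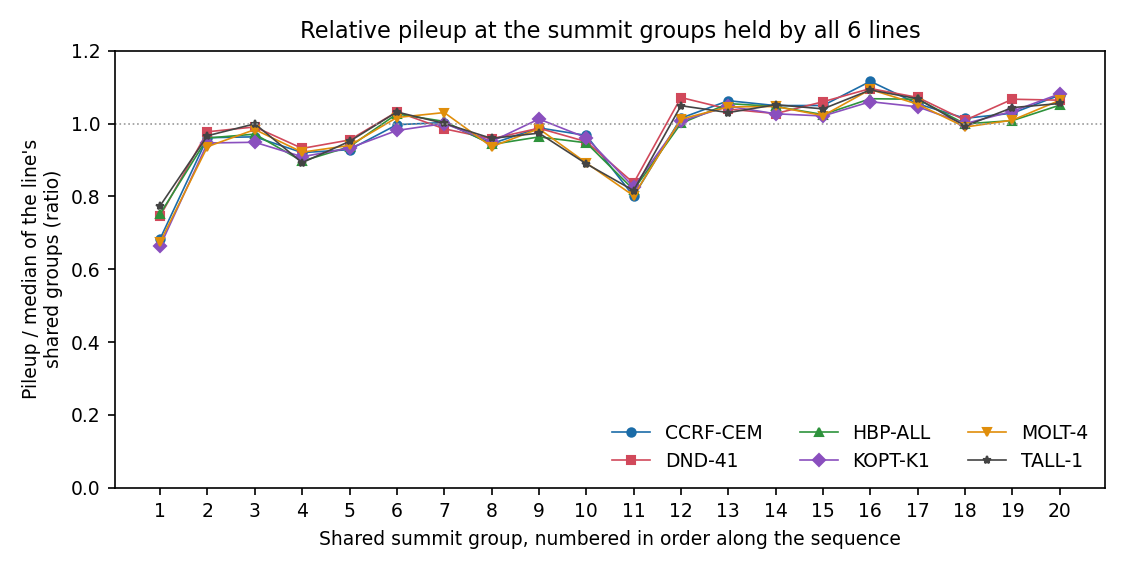
Pileup at each of the 20 shared summit groups divided by the line's median over these groups, with groups numbered in order along the sequence. The 6 lines run together, with dips at groups 1 (0.66 to 0.77) and 11 (0.80 to 0.84) and, in every line but KOPT-K1, the highest point at group 16 (1.06 to 1.12 over all lines).

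Lines differed most in relative pileup at the group nearest the start. There TALL-1 was 1.17 times KOPT-K1, the largest spread of the 20 groups. TALL-1, HBP-ALL and DND-41 lay between 0.75 and 0.77, and CCRF-CEM, MOLT-4 and KOPT-K1 between 0.66 and 0.68. This division of the lines was drawn from these same values, so it is no result of its own. The group at 7919 to 7943 had the second largest spread, 1.09-fold. MOLT-4 and TALL-1 were both at 0.89 there, with summits at 7943, and the other 4 lines at 0.95 to 0.97, with summits at 7919 to 7923. The group at 9861 to 9895 came next, with DND-41 1.07 times HBP-ALL. The counting error of a pileup (exact Poisson 95% interval) is 1.45% of the lowest and 0.998% of the highest mitochondrial value. It does not hold the spread between libraries, and no replicate was there to measure that. Dixon's gap ratio looks for a single value far from the rest. Over the 20 groups the largest was 0.546, for MOLT-4 at 3785 to 3821, below the 95% critical value for 6 values. At the group nearest the start, with the largest spread, it was 0.201, since it does not register a division into sets of lines. It therefore does not show that the lines were alike.

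Of the 5 groups held by all lines but 1, DND-41 lacked 3, those at 9598 to 9612, 10810 to 10829 and 14284 to 14329. At the gap of 50 bp, DND-41 had summits that no other line shared at 2641, 10711 and 13832. Which groups a line held or lacked depends on that gap. At a gap of 100 bp its summit at 10711 joined those at 10810 to 10829 in a group of all 6 lines. The summit at 2641 lay close to the group at 2698 to 2712, which DND-41 also held. KOPT-K1 alone lacked the group at 11358 to 11417. TALL-1 alone lacked the group at 15654 to 15740. Of the 12 groups held by 3 to 5 lines, MOLT-4 lacked 6, TALL-1 5, DND-41 4, CCRF-CEM 3, KOPT-K1 2 and HBP-ALL 1.

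Among the groups held by 4 lines, the one at 2348 to 2364 was missing in MOLT-4 and TALL-1, as was that at 15038 to 15121. In the first of these, pileups in the other lines were 33543 tags in KOPT-K1, 29955 in CCRF-CEM, 27773 in DND-41 and 24501 in HBP-ALL. The group at 8073 to 8082 was missing in CCRF-CEM and MOLT-4, and that at 11148 to 11184 in DND-41 and MOLT-4. All 4 lie inside intervals that every line had. MOLT-4, which lacked the group at 15038 to 15121, had a summit at 15182 that no other line shared at the gap of 50 bp. That summit lay close to the upper end of the group, and its place outside it rests on the gap chosen.

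The far end was resolved differently by line. DND-41, HBP-ALL and TALL-1 had a last summit at 15958, 15969 and 16006, with folds of 2.16, 2.17 and 2.17. CCRF-CEM had its last at 15906, with a fold of 2.06. KOPT-K1 and MOLT-4 had theirs at 15686 and 15654, in a group that CCRF-CEM, DND-41 and HBP-ALL also held. Summits of a single line were 3 each in DND-41 and HBP-ALL, 2 each in CCRF-CEM and MOLT-4, 1 in TALL-1 and 0 in KOPT-K1. These counts hold for the gap of 50 bp. Several of these summits lay close to another group, as that at 15906 did to the group at 15958 to 16006. They are therefore not read as sites of 1 line only.

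Read totals are not known here, so pileups were also set against each library's genome background, the lowest local background in its list and the one shared by the most entries. It was 0.694 tags in CCRF-CEM, 0.916 in MOLT-4, 1.07 in KOPT-K1, 1.14 in DND-41, 1.23 in HBP-ALL and 1.38 in TALL-1. The median pileup of the 20 shared groups was 47091 times this background in CCRF-CEM, 33717 times in KOPT-K1, 31985 in MOLT-4, 25780 in DND-41, 21992 in HBP-ALL and 18583 in TALL-1. CCRF-CEM thus stood 2.53-fold above TALL-1. The median pileup alone was 32658.5 tags in CCRF-CEM and 25722 in TALL-1, and was highest in KOPT-K1, at 35988. The genome background, the denominator of the ratio, differed relatively more between CCRF-CEM and TALL-1 than the median pileup did. Ordered by that background alone, from lowest to highest, the lines keep the order of the ratio, except that KOPT-K1 and MOLT-4 change places. The order of lines by the ratio thus rests largely on its denominator. Within each of the 20 groups the 6 lines kept the order of the ratio. The closest neighbours were KOPT-K1 and MOLT-4, where KOPT-K1 was higher in 20 of 20 groups, by 1.02-fold to 1.14-fold (median 1.05-fold). All groups of a line are divided by the same background, so these are not 20 independent comparisons, and without a second library per line it is not known whether a gap of this size exceeds the spread between libraries.

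**Figure D4:**
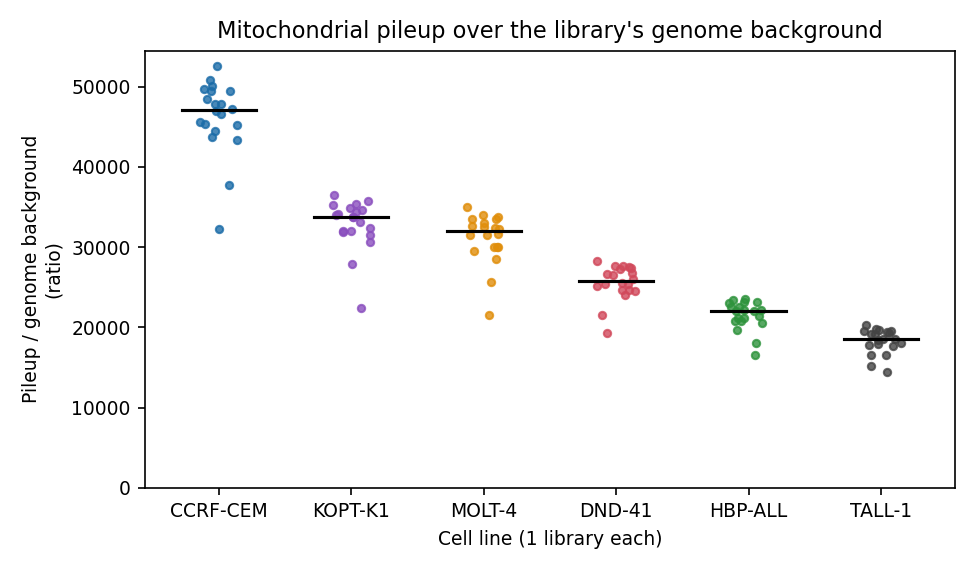
Pileup divided by the library's genome background at the 20 shared groups (points) with their median (bar), for 1 library per line. Medians fall from 47091 in CCRF-CEM to 18583 in TALL-1; points of 1 line share a library and are no replicates.

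The number of mitochondrial genomes per cell and the share of mitochondria that stayed with the nuclei during preparation cannot be told apart in this ratio. The genome background may itself include mitochondrial tags. The library with the highest ratio, CCRF-CEM, had the lowest genome background, and the library with the lowest ratio, TALL-1, had the highest. That background is the denominator of the ratio. The 3 libraries with the lowest ratios, TALL-1, HBP-ALL and DND-41, were also the 3 with the higher relative pileup at the group nearest the start. A line's median pileup divides its relative pileups and is also the numerator of its ratio, so these values are not independent. The division of lines at that group was drawn after its values were seen, and the part of the ratio in it was not tested.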

How the data were processed

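The members and the rules of grouping were chosen with earlier results of these data known. MACS2 2.1.1.2016030, SAMtools, Picard, Bowtie2 and build hg19 are named in the submitters' processing notes. Their order and settings, a Tn5 shift and any removal of mitochondrial reads were not given in the sources used here. The authors deposited 1 narrowPeak list per library. In the deposited lists the score is the −log10 p times 10 without its decimals, with 7 exceptions among 139886 entries, the fold is enrichment over local background, and −log10 p and −log10 q are the caller's; the position of the summit within its interval is given in bp.

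Pileup t and local background c were recovered as the whole t for which the deposited fold is (t + 1) / (c + 1) and p is the upper Poisson tail above t. All entries on chromosomes 1 to 22, X and Y matched the deposited −log10 p within 0.001 in each list, and mitochondrial ones within 0.0198. Rounding in the lists leaves at most 0.036% of a mitochondrial pileup open. In 300 simulated mitochondrial summits the largest error was 0.0146%, and 20 of 20 planted summit groups were found. The simulated summits were made with the formula that the recovery inverts, so they test rounding and not the formula. The planted groups were evenly spaced and narrower than most of the real ones. Finding them does not test the grouping of summits that lie close together. Read totals are not known here.

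Regions named follow a rule: shared summit groups, each line's strongest summit and widest interval, and any contig with peaks in at least 3 lines; the other positions given were chosen after their values were seen. The recovery of pileups and the ratio to the genome background were added after seeing the data. The mitochondrial sequence was treated as linear. No sequence is printed, since no genome of this build was used here. The scripts ran with scipy 1.17.1, numpy 2.4.6, matplotlib 3.10.9 and pandas 2.3.3 under Python 3.11.15.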

Additional observations from a re-analysis of the deposited data

How the results depend on the processing

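The 20 shared summit groups became 16 with a gap of 25 bp, which split those at 2104 to 2135, 6363 to 6439, 11780 to 11835 and 14023 to 14098, and 21 with a gap of 100 bp, which added one at 10711 to 10829. They stayed at 20 with a −log10 p of at least 10 and with 20468 strongest entries per list, and were 19 to 23 without 1 of the lines (19 without HBP-ALL, 23 without DND-41). The joined regions held by all lines stayed at 5 with 50% reciprocal overlap, with a −log10 p of at least 10, and without any 1 line. Contig counts were 0 throughout. Counted by interval, the mitochondrial share was 0.0334% in DND-41, 0.0330% in KOPT-K1, 0.0314% in MOLT-4, 0.0302% in TALL-1, 0.0271% in HBP-ALL and 0.0223% in CCRF-CEM, lower because many summits share an interval. Among entries with a −log10 p of at least 10 it was 0.166% to 0.187%. Alternatives for the ratio to the genome background were chosen after seeing the data. With the highest local background in place of the pileup it was 37743 in CCRF-CEM, 26555 in KOPT-K1, 25093 in MOLT-4, 20875 in DND-41, 16980 in HBP-ALL and 15155 in TALL-1. That was lower than with the pileup in every line, in the same order of lines. This alternative kept the genome background as denominator and came from the same mitochondrial tags, so it is no independent check of the order. No paired analysis was possible because each line has 1 library.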

Other observations

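Entries outside the mitochondrial genome with a fold as low as the mitochondrial ones were few, and the lowest of all lay in MOLT-4, on chromosome 1 at 567790 to 568143 in hg19. Its fold was 1.51, with a pileup of 125 tags over a local background of 82.4, where the genome background of MOLT-4 was 0.916. The other 5 lists had no entry there but one close by, between 568403 and 569100, which MOLT-4 lacked. Their summits lay at 568743 to 568755, with pileups of 167 in KOPT-K1, 133 in CCRF-CEM, 130 in DND-41, 100 in TALL-1 and 89 in HBP-ALL over backgrounds of 21.8 to 26.9. The region was chosen after its values were seen, and no gene or sequence feature was assigned to it. Whether its tags came from nuclear or mitochondrial DNA was not tested.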
